A study of Rattus norvegicus with 12 samples.

Results

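Depp1 and 8 further genes tied to the FoxO transcription factors and to energy stress (Foxo1, Foxo3, Irs2, Pdk4, Txnip, Sesn1, Angptl4 and Ppargc1a) were followed in rat lung. Every probe set to which the platform annotation gives one of these names alone was taken, which gave 17 probe sets for 9 genes, of 31042 probe sets and 14217 genes on the array. Lungs were taken from the Dahl salt-sensitive rat (SS), whose blood pressure climbs on a salty diet, and from Brown Norway (BN) animals. Animals of 250 to 350 g were either controls or ventilated, in a mode that the labels call HTV without spelling it out. A free-text description shared by all 12 samples, controls included, speaks of room air and ventilation. Each of the 4 groups (SS control, SS HTV, BN control, BN HTV) had 3 arrays of right lung, cleared of blood through the pulmonary artery, with a separate animal number for each. No transgene or drug is named, and no ventilation time or age was found in the labels. The labels do not say whether the arrays of a group come from separate experiments. A p-value here reflects variation among the 3 samples of a group, pooled over the 4 groups, part of which may be technical.

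FoxO proteins are forkhead transcription factors that insulin and growth factors keep out of the nucleus through the kinase AKT. When that signal fades, or when energy runs short, they enter the nucleus and switch on genes for fuel switching, stress resistance, autophagy and growth arrest. In lung, Foxo1 is well known for its role in endothelial cells. Depp1 encodes a small protein first described as induced by progesterone in decidual cells, and it is a known direct FoxO target linked to autophagy and peroxide handling.

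The genes were chosen by name with results of these arrays in view, and Depp1 was selected on its measured rise in SS HTV lungs. For these genes, values for HTV in SS lungs and for the difference between the strains' responses are therefore given as a description with no test. So is Depp1 in any comparison that uses SS arrays. Tests were made in BN lungs, and between strains for the other 8 genes. Intensities are the authors' MAS5 values, and each difference, given with its standard error (SE), is one of log2(intensity + 16), a scale that understates the change of a dim probe set. With n = 3 in each group, precision is limited by how few arrays there are. Of the 17 probe sets 12 were bright enough to test, at least 1 for each of the 9 genes. The other 5 (2 of Foxo1, 2 of Foxo3 and 1 of Ppargc1a) had mean intensities of 2.48 to 20.3, against a minimum of 43.6, and were not tested.

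The tissue matched its label, since all 8 lung markers were bright and their summed intensity was 18361 to 25108 in the 12 arrays. SS control 3 stood apart. Its mean correlation with its own group was 0.949, against 0.963 to 0.975 for the other arrays. At 36 probe sets where each of the other 5 SS arrays was separated from all BN arrays by over 1.5 in log2, SS control 3 was past the midpoint towards BN in 13 cases, whereas no other array did so at any of its own 21 to 25 probe sets. It was kept as labelled, and values without it are given beside member results that use it. The log2 ratio of 5-prime over 3-prime beta-actin controls, a sign of RNA integrity, was -1.40 to -0.23 in SS arrays and -1.46 to -0.88 in BN arrays.

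Depp1 rose in BN lungs under HTV. Its intensity was 314.5, 881.1 and 720.6 in the BN controls and 3403.2, 3286.2 and 2611.9 in the BN HTV arrays, with no overlap between the groups. The increase was 2.36 ± 0.32 in log2 (SE), or 5.14-fold (95% interval 1.67 to 3.05 in log2, adjusted p = 0.000914, limma). It was between 1.93, without BN control 1, and 2.65, without BN control 2, whichever array was left out, and it passed the test under all 23 alternatives tried (adjusted p = 0.000436 to 0.00704). The spread in this test was pooled over all 4 groups, SS arrays included. With the BN arrays alone the adjusted p was 0.00327 (limma). Depp1 ranked 14 of 10555 genes by its increase in BN lungs.

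In SS lungs, where Depp1 was noticed, it had 381.2, 359.6 and 305.9 in controls and 3324.1, 1540.2 and 2641.3 in HTV arrays. SS HTV 2 was the lowest of the SS HTV lungs and still lay above every control of both strains. The difference was 2.72 ± 0.32, and 2.64 without SS control 3. The response in SS exceeded that in BN by 0.36 ± 0.45, less than its own standard error, and by 0.07 without BN control 2 to 0.79 without BN control 1. It was 0.27 without SS control 3. Control lungs differed by -0.73 ± 0.32 (SS minus BN), with overlapping arrays because BN control 1 lay among the SS controls, and the value was -1.16 without BN control 1, -0.44 without BN control 2 and -0.64 without SS control 3. The order of the group means was thus SS control, BN control, SS HTV and BN HTV, at 349 ± 38.8, 639 ± 292, 2502 ± 900 and 3100 ± 427 (SD), and neighbours within a treatment overlapped.

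**Figure D1:**
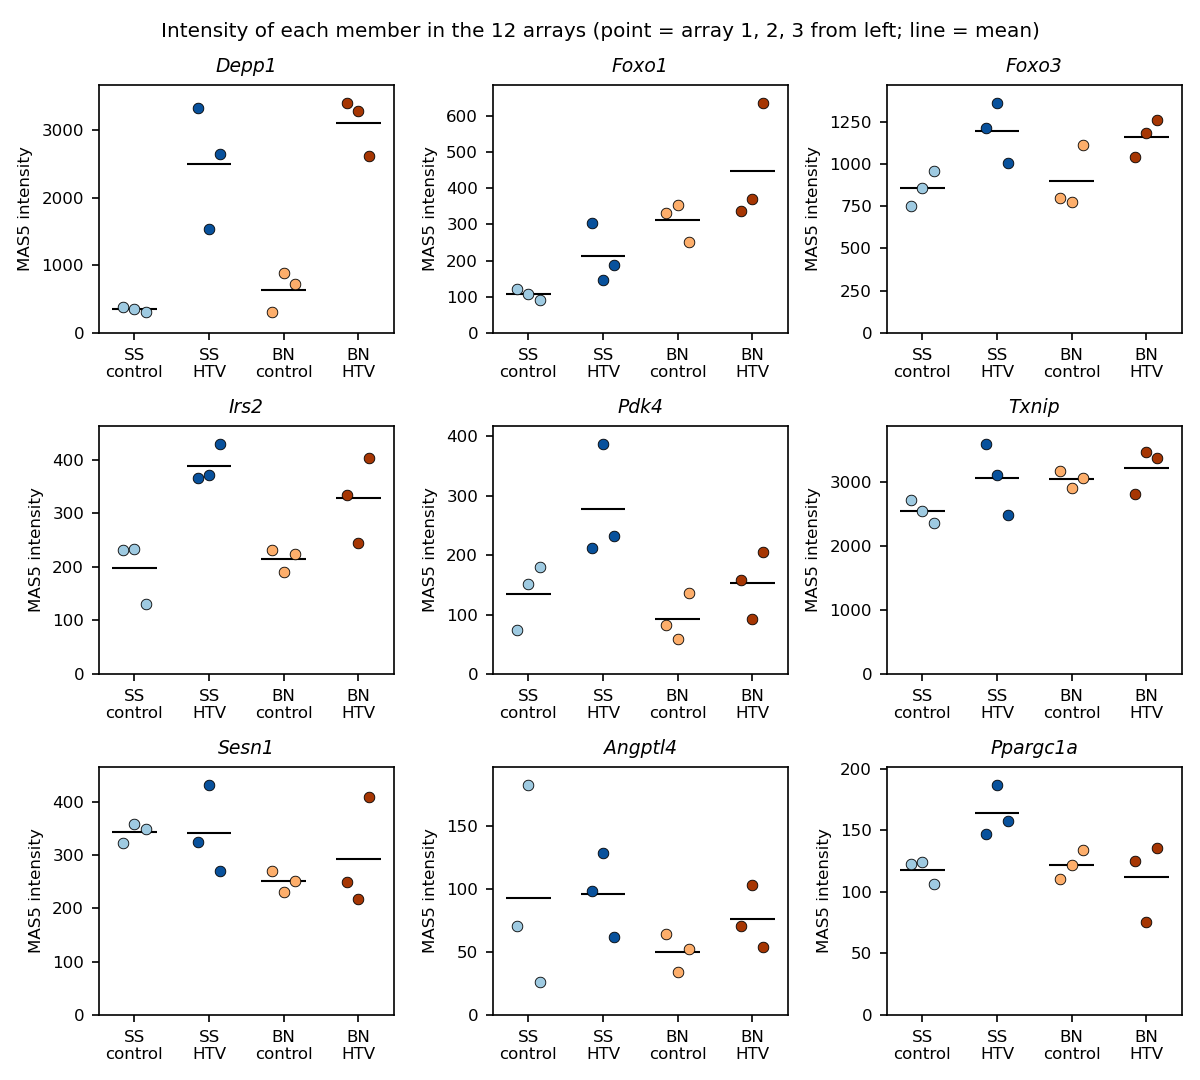
MAS5 intensity (linear axis from 0) of the 9 genes, each by its brightest probe set, with 1 point per array in the order 1, 2, 3 and a line at the group mean. Depp1 separates all 6 HTV arrays (1540.2 or more) from all 6 controls (881.1 or less), whereas Foxo1 separates the strains within each treatment.

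Neutrophil markers rose with HTV as well. Of 8 markers 6 passed higher in BN lungs and 5 in SS lungs, where 2.99% and 3.92% of all genes did. Mmp9 had a median intensity of 19.25, below the minimum of 43.6, so its brighter arrays brought it past the filter. The lowest arrays of Il1r2, Mmp8 and Cxcr2, at 15.9, 28.2 and 17.1, were below 43.6 as well. The shares of all genes make no allowance for this. The summed intensity of the 8 markers was 1212 to 1924 in BN controls and 3121 to 8753 in BN HTV arrays. In SS it was 2053 to 2752 in controls and 5811 to 8435 under HTV. In these bulk samples, more cells of a type and more RNA per cell cannot be told apart. BN HTV 3 had the lowest neutrophil sum of the 6 HTV arrays, 3121, and its Depp1 intensity, 2611.9, was the lowest of the 3 BN HTV arrays and above all controls. The SS HTV array with the lowest neutrophil sum, SS HTV 2 at 5811, also had the lowest Depp1 intensity of the 6. The part of neutrophils in the rise of Depp1 and in the values of the other members was not tested. Of the other markers 0 of 8 for lung identity, 0 of 7 endothelial, 0 of 6 macrophage, 0 of 7 cardiac and 0 of 3 adipocyte genes passed with HTV in either strain in limma. Over all genes 5.68% passed in BN and 8.04% in SS lungs. T and NK cell markers were lower for 2 of 8 in SS and 1 of 8 in BN lungs, and 1 of 8 fibroblast and smooth muscle markers was lower in BN lungs. A single hepatocyte marker of 3 was higher in SS and a single skeletal muscle marker of 4 in BN lungs.

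The promoter of Depp1 is shown because this gene moved most. The set of RefSeq promoters used, on build GRCr8, held 6 of the 9 genes and lacked Foxo3, Irs2 and Txnip. Each promoter was 300 bases, from 250 before to 50 after the start. The 6 motifs searched on both strands were the forkhead core GTAAACA, the insulin response core CAAAACA, the E-box CACGTG, the glucocorticoid response palindrome, the PPAR direct repeat and the cAMP response palindrome TGACGTCA. They occur in 3.78%, 6.28%, 6.42%, 0.0149%, 0.0538% and 1.83% of 33469 promoters of this length. In Depp1 (chr4:151583121-151583420, plus strand) none of the 6 occurred, so all letters are in lower case. In Ppargc1a (chr14:63634058-63634357, plus strand) the cAMP response palindrome lay 181 to 174 bases before the start, in capitals, and no match overlapped another. The promoters of Foxo1, Pdk4, Sesn1 and Angptl4 held no match. These are matches of letters within a short window. Only these exact letters were searched, so a looser form of a site, such as gtaaata in the Depp1 and Pdk4 windows, was not counted. The share of all promoters with that form was not computed.
Depp1 promoter: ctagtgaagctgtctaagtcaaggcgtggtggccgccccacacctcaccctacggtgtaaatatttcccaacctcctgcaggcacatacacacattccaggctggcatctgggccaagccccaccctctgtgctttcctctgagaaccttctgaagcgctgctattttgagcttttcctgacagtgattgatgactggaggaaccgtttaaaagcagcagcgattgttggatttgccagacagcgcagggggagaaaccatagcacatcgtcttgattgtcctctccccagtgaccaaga
Ppargc1a promoter: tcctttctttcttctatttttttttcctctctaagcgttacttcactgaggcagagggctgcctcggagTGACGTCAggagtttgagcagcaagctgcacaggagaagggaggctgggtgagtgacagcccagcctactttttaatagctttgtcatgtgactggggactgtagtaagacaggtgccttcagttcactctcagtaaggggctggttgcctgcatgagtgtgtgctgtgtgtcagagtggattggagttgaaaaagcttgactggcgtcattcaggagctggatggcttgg

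Of the forkhead factors themselves, Foxo1 separated the strains. It had 122.1, 108.5 and 91.3 in SS controls and 332.4, 354.9 and 251.9 in BN controls, with no overlap. SS control lungs were lower by -1.41 ± 0.25 (0.376-fold, 95% interval -1.96 to -0.86, adjusted p = 0.0042, limma). Without SS control 3 the difference was -1.31 (adjusted p = 0.0129), and it passed under all 23 alternatives (adjusted p = 0.00192 to 0.0272). The other 2 Foxo1 probe sets, at mean intensities of 20.3 and 2.83, were too dim to show whether they follow.

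Under HTV Foxo1 had 303.3, 146.2 and 186.9 in SS lungs and 338.2, 370.0 and 636.1 in BN lungs, again with SS below BN. The difference was -1.03 ± 0.25 (0.49-fold, 95% interval -1.58 to -0.48, adjusted p = 0.0248). This call was lost without SS HTV 2 (-0.81, adjusted p = 0.115), SS HTV 3 (-0.97, 0.0906) or BN HTV 3 (-0.76, 0.0841), with the 6 HTV arrays alone (0.054) and with the beta-actin ratio as a covariate (-0.92, 0.137). Of the 8 genes tested between strains, Foxo1 was the 1 that passed in control lungs, where 11% of all genes passed, and the 1 that passed in HTV lungs, where 7.28% did.

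Endothelial markers were also lower in SS than in BN controls. Their summed intensity was 8189 to 8444 in SS and 10691 to 11212 in BN controls. Of 7 tested markers 3 passed lower, where 11% of all genes passed in either direction. Under HTV the sums were 7820 to 9483 in SS and 10320 to 11014 in BN lungs. The part of this difference in that of Foxo1 was not tested.

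Within a strain, Foxo1 lay higher under HTV in SS lungs by 0.84 ± 0.25, without overlap (0.74 without SS control 3). In BN lungs the difference was 0.45 ± 0.25 (adjusted p = 0.353), and BN HTV 3 at 636.1 carried much of it, since the value without that array was 0.18.

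Foxo3, the other forkhead factor, had 750.8, 857.1 and 956.4 in SS controls, 798.8, 777.1 and 1113.8 in BN controls, 1211.3, 1360.5 and 1004.8 in SS HTV and 1038.8, 1182.2 and 1257.8 in BN HTV lungs. The SS HTV arrays all lay above the SS controls (0.47 ± 0.15, and 0.55 without SS control 3), while BN control 3 overlapped the BN HTV arrays (0.38 ± 0.15, 95% interval 0.05 to 0.71, unadjusted p = 0.0261, adjusted p = 0.18). In control lungs the strains differed by -0.06 ± 0.15 (95% interval -0.38 to 0.27, adjusted p = 0.841), and by -0.14 without SS control 3.

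Irs2 encodes the insulin receptor substrate that carries the insulin signal to AKT, and FoxO factors are known to induce it. It had 231.1, 233.8 and 130.5 in SS controls and 365.5, 372.5 and 429.8 in SS HTV arrays, which did not overlap. SS control 3 was the low control, and the difference of 0.96 ± 0.21 became 0.70 without it. In BN lungs Irs2 had 232.4, 190.8 and 223.8 in controls and 335.2, 245.1 and 403.8 under HTV, also without overlap, with BN HTV 2 just above the controls. The increase of 0.55 ± 0.21 (95% interval 0.11 to 0.99, unadjusted p = 0.0189) did not pass over all probe sets (adjusted p = 0.151). It passed in 3 of 23 alternatives, namely array weights (adjusted p = 0.0329), the beta-actin covariate (0.0327) and leaving out SS control 3 (0.0461), and the adjusted p was up to 0.343 in the others.

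Pdk4 encodes the pyruvate dehydrogenase kinase that spares glucose in fasting, a classic FoxO and PPAR target. Its brighter probe set had 74.8, 150.7 and 180.3 in SS controls, 212.1, 387.0 and 231.6 in SS HTV, 83.1, 59.6 and 136.8 in BN controls and 158.8, 93.3 and 205.1 in BN HTV arrays. The groups were apart in SS and overlapped in BN lungs. The difference under HTV was 0.98 ± 0.34 in SS lungs, from 0.65 without SS control 1 to 1.20 without SS control 3. In BN lungs it was 0.63 ± 0.34 (95% interval -0.11 to 1.36, adjusted p = 0.335), and 0.39 without BN control 2 or 0.40 without BN HTV 3. The dimmer probe set gave 0.52 ± 0.21 in SS and 0.21 ± 0.21 in BN lungs (adjusted p = 0.646). Under HTV the SS arrays lay above the BN arrays by 0.81 ± 0.34 without overlap at the brighter probe set. This did not pass (unadjusted p = 0.0329, adjusted p = 0.169, limma) and was 0.53 without BN HTV 2. At the dimmer probe set the strains overlapped under HTV (0.34 ± 0.21, adjusted p = 0.357).

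Ppargc1a encodes PGC-1alpha, a coactivator of mitochondrial and fasting genes that works with FoxO1. Its brightest probe set had 122.4, 124.6 and 106.6 in SS controls and 147.2, 186.9 and 157.4 in SS HTV arrays, a difference of 0.42 ± 0.17 without overlap (0.36 without SS control 3). In BN lungs it had 110.3, 121.5 and 134.2 in controls and 125.1, 75.4 and 135.3 under HTV, so BN HTV 2 was the lowest of all 12 arrays and BN HTV 3 lay just above the highest control. The BN difference was -0.14 ± 0.17 (95% interval -0.51 to 0.23, adjusted p = 0.724), and its sign rested on BN HTV 2, without which it was 0.09. A further probe set ran the same way, at 0.53 ± 0.22 in SS and -0.10 ± 0.22 in BN lungs (adjusted p = 0.854).

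The response of Ppargc1a in SS exceeded that in BN by 0.56 ± 0.25, and by 0.63 ± 0.31 at the further probe set. At the brightest probe set this was 0.34 without BN HTV 2 and 0.50 without SS control 3. Under HTV SS arrays lay above BN arrays without overlap at the brightest probe set, by 0.52 ± 0.17 (95% interval 0.14 to 0.89, unadjusted p = 0.0103, adjusted p = 0.0855, limma). Without BN HTV 2 this was 0.29 (adjusted p = 0.276). At the further probe set the strains overlapped under HTV (0.44 ± 0.22, adjusted p = 0.254). Cardiac muscle, a tissue rich in Ppargc1a and Pdk4, had marker sums of 163 to 1160 in SS HTV and 951 to 4331 in BN HTV arrays, with the highest in BN HTV 2. The part of cardiac muscle in the values of both genes was not tested.

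Txnip, the thioredoxin-binding arrestin that limits glucose uptake, was bright in all arrays, at 2364.4 to 3591.0. It differed under HTV by 0.25 ± 0.13 in SS (0.13 without SS HTV 1, 0.20 without SS control 3) and 0.08 ± 0.13 in BN lungs (95% interval -0.20 to 0.35, adjusted p = 0.8), with overlap in both. In control lungs its SS arrays (2364.4 to 2718.8) lay below the BN arrays (2896.4 to 3169.9), by -0.26 ± 0.13 (adjusted p = 0.195), and by -0.21 without SS control 3.

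Sesn1 encodes a sestrin, a stress-induced brake on mTORC1. Its brighter probe set ranged from 218.0 to 431.4 and differed under HTV by -0.03 ± 0.20 in SS and 0.16 ± 0.20 in BN lungs (95% interval -0.27 to 0.59, adjusted p = 0.728), the latter -0.10 without BN HTV 3 and the former -0.02 without SS control 3. SS controls (323.4 to 358.9) lay above BN controls (231.2 to 270.3) by 0.43 ± 0.20 (unadjusted p = 0.0498, adjusted p = 0.172; 0.42 without SS control 3), whereas the dimmer probe set gave 0.06 ± 0.14 (adjusted p = 0.814). Angptl4 encodes a secreted inhibitor of lipoprotein lipase and ranged from 25.9 to 182.9, both ends in SS controls. Its difference under HTV was 0.28 ± 0.43 in SS lungs, which turned to -0.27 without SS control 3 and was 0.85 without SS control 2, and 0.47 ± 0.43 in BN lungs (95% interval -0.46 to 1.40, adjusted p = 0.608).

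**Figure D2:**
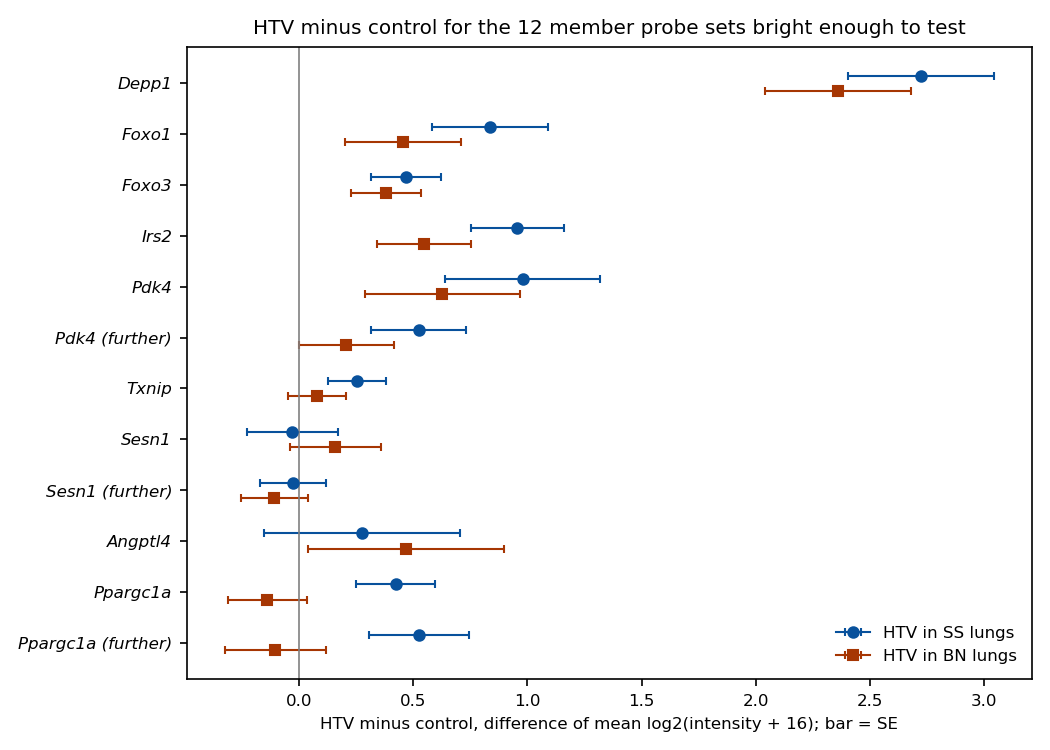
Difference between HTV and control arrays in mean log2(intensity + 16) for the 12 tested probe sets of the 9 genes, with bars for the standard error (circles SS, squares BN; "further" marks a gene's second probe set). Depp1 lies at 2.72 and 2.36, all other values lie between -0.14 and 0.98, and Ppargc1a lies above 0 in SS and below 0 in BN lungs at both probe sets, which at the brightest one turns to 0.09 in BN without BN HTV 2.

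Of the 9 genes, 6 were separated in SS lungs with every HTV array above every control, where 14.1% of all genes did so, and nothing is read from this because that comparison was known when the genes were chosen. In BN lungs 2 of 9, Depp1 and Irs2, were higher without overlap, against 10.5% of all genes. Depp1 was the 1 of 9 that passed the test in BN lungs, where 5.68% of genes did. The median difference over the 9 genes was 0.47 in SS and 0.45 in BN lungs, against -0.01 and -0.03 over all 10555 genes. Nothing is read from these medians either, because the genes were chosen with results of these arrays in view. The BN median was the value of Foxo1, which did not pass (adjusted p = 0.353, limma). Between strains 3 of 8 were separated in control lungs (Foxo1 and Txnip lower and Sesn1 higher in SS), where 32.7% of all genes were. Under HTV 3 of 8 were (Foxo1 lower, Pdk4 and Ppargc1a higher), where 28.3% of all genes were. These counts use each gene's brightest probe set. The further probe sets of Sesn1 in control lungs, and of Pdk4 and Ppargc1a in HTV lungs, overlapped between the strains.

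The HTV arrays of a strain did not share 1 order over these genes. BN HTV 3 was the highest of its group for 6 of 9 genes (Foxo1, Foxo3, Irs2, Pdk4, Sesn1 and Ppargc1a) and the lowest for Depp1 and Angptl4. SS HTV 2 was the highest of its group for 5 (Foxo3, Pdk4, Sesn1, Angptl4 and Ppargc1a) and the lowest for Depp1 and Foxo1. These were the arrays with the lowest neutrophil sums of their groups, a pattern noticed after the values were seen and described without a test. In controls, SS control 3 was the lowest of its group for 6 genes and BN control 2 for 6.

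**Figure D3:**
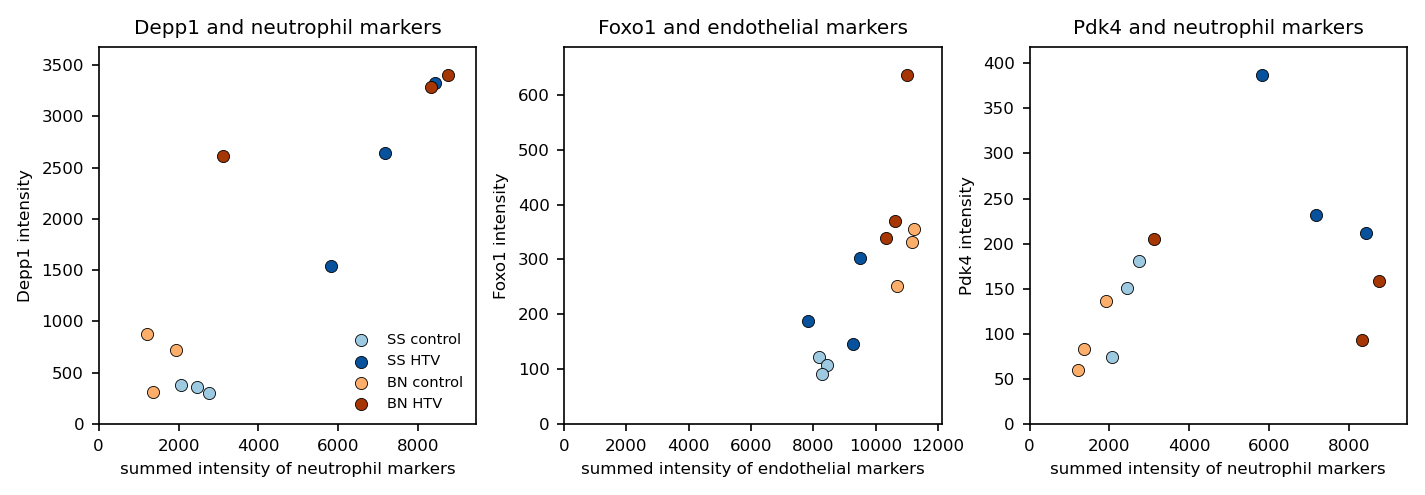
Intensity of Depp1, Foxo1 and Pdk4 (vertical axes) against the summed intensity of 8 neutrophil or 7 endothelial markers (horizontal axes), 1 point per array, all axes from 0. In each strain the HTV array with the lowest neutrophil sum (BN HTV 3 at 3121, SS HTV 2 at 5811) has the lowest Depp1 intensity of its group (2611.9 and 1540.2), and the SS and BN controls lie apart in both Foxo1 and the endothelial sum.

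The genes whose pattern over the 12 arrays was most like that of Depp1 were Map3k8, Mt2A, Csrnp1, Lrrc32 and Sik1. The measure was the root mean square difference between mean-centred log2 profiles, from 0.40 for Map3k8 to 0.45 for Sik1. Map3k8 encodes a kinase of the Toll-like receptor pathway and Sik1 a salt-inducible kinase. Of the other members Irs2 was nearest, at 1.06 and rank 233 of 10554 genes, followed by Foxo1 at 1.10 and rank 291.

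The wider pathway was read from 7 lists with 139 genes, of which 113 were tested. The lists were chosen with earlier results of these data known. Their calls and p-values in both strains therefore describe these arrays and are not independent support. In BN lungs 14 rose and 3 fell, and in SS lungs 21 rose and 6 fell, where 5.68% (2.99% higher, 2.69% lower) and 8.04% (3.92% higher, 4.12% lower) of all genes passed. Of these, 16 passed in the same direction in both strains, 94.1% of the BN calls and 59.3% of the SS calls. The BN total of 17 was 9 without BN control 1, BN control 2, BN HTV 1 or BN HTV 2. The SS total of 27 was 16 without SS HTV 1 and 15 without SS HTV 3. The difference between the strains' responses passed for 0 of 113 genes in limma (0% of all genes), with 11 (9.73%) at an unadjusted p below 0.05, against 8.53% of all genes.

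The glucocorticoid and progesterone response, hormones that share targets with FoxO, had the largest share of calls, with 7 of 9 genes higher in each strain. Over all genes 2.99% were higher in BN and 3.92% in SS lungs. The median difference of the list was 1.60 in BN and 1.54 in SS lungs. The transcription factor gene Cebpd rose by 1.83 ± 0.15 in BN (adjusted p = 2.77e-05) and 1.62 ± 0.15 in SS lungs (7.21e-05). The metallothionein Mt2A rose by 2.21 and 2.63, and Errfi1, a feedback inhibitor of the EGF receptor, by 1.62 and 1.74. All of these calls were kept under the 23 alternatives. Neutrophil markers rose with HTV too, and their part in these rises was not tested.

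Of 25 other FoxO targets tested, 3 passed higher and 1 lower with HTV in BN, against 2.99% and 2.69% of all genes. In SS lungs 7 passed higher and 2 lower, against 3.92% and 4.12%. The median difference of the list was 0.15 in BN and 0.13 in SS lungs, against -0.03 and -0.01 over all genes. The cell cycle inhibitor Cdkn1a, also a p53 target, rose by 1.52 ± 0.20 in BN (adjusted p = 0.000705) and by 2.18 in SS lungs. Pck1, the gluconeogenic enzyme, rose in SS lungs by 2.35 ± 0.37 (adjusted p = 0.0021), from 46.6 ± 8.13 to 304 ± 57.1, and kept this call under 23 alternatives. In BN lungs Pck1 went from 149 ± 82.4 to 195 ± 94.8 (0.39 ± 0.37, adjusted p = 0.62), and the difference between the responses, 1.96 ± 0.52, did not pass over all probe sets (unadjusted p = 0.00213, adjusted p = 0.53). Fat is a tissue rich in Pck1, and of 7 adipocyte markers with a probe set 3 were bright enough to test and 0 passed with HTV in either strain in limma. The sum of these 3 was 107.5 to 161.6 in SS controls, 161.2 to 241.6 in SS HTV, 114.4 to 246.1 in BN controls and 155.8 to 223.0 in BN HTV arrays. Their median difference under HTV was 0.46 in SS and -0.16 in BN lungs, and the defining marker Adipoq, too dim to test, was at 16.5 to 61.4. The part of fat in the Pck1 values was not tested. The pro-apoptotic gene Bcl2l11 rose in SS lungs by 0.90 and the death ligand gene Tnfsf10 fell by 0.71 on the log2 scale.

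Gadd45a, Bnip3 and the cyclin gene Ccng2 passed in BN lungs at 0.89, 0.47 and -0.82. Each of these calls was lost without BN control 1, BN control 2 or BN HTV 1, with adjusted p up to 0.0915, 0.123 and 0.0912. Those of Gadd45a and Ccng2 were also lost without BN HTV 2, that of Ccng2 without BN control 3 and that of Bnip3 without BN HTV 3. With only the groups compared the calls of Gadd45a and Bnip3 were lost as well. Cyclin G2 is a classic FoxO-induced gene, and it fell in SS lungs too, by 0.80 on the log2 scale, a call that SS HTV 1, SS HTV 3, SS control 2 and SS control 3 were each needed for (adjusted p up to 0.0894 without 1 of them).

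In the list of AMPK, sestrins and the mTORC1 brake, 0 of 19 genes rose in either strain in limma. Over all genes 2.99% rose in BN and 3.92% in SS lungs. Folliculin, Flcn, a regulator of AMPK and of mTORC1 at the lysosome, fell by 0.94 on the log2 scale in BN lungs (SE 0.13, adjusted p = 0.001), from 468 ± 37.5 to 236 ± 19.6, and by 0.75 in SS lungs (adjusted p = 0.0036), and both calls were kept under all 23 alternatives. Tsc1 also fell in SS lungs, by 0.39, a call lost without any 1 of 5 SS arrays (SS control 1, 2 or 3, SS HTV 1 or 3). The Tsc1 call was also lost with only the groups compared (adjusted p up to 0.113).

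In the list on thioredoxin and glucose-sensing arrestins 3 of 13 genes rose in BN and 4 in SS lungs. Over all genes 2.99% rose in BN and 3.92% in SS lungs. Arrdc3, an arrestin of the Txnip family, rose by 0.66 ± 0.11 in BN lungs under all 23 alternatives (adjusted p = 0.0031), from 1645 ± 112 to 2607 ± 263. In SS lungs it rose by 0.41 ± 0.11 (adjusted p = 0.0359), a call lost when BN control 3, SS control 1 or 2, or SS HTV 1 or 2 was left out. The call was also lost with no filter, no trend or only the groups compared (up to 0.112). Its relative Arrdc2 rose by 0.70 in SS lungs under all alternatives. In BN lungs Arrdc2 rose by 0.51 (adjusted p = 0.0402). This call was lost with no filter and without SS control 2 or any 1 of the 6 BN arrays (up to 0.141). Txnrd1, thioredoxin reductase, rose by 0.42 in BN lungs (adjusted p = 0.0372), lost in 10 of 23 alternatives, 6 of which left out SS control 2, SS HTV 1, BN control 2, BN control 3, BN HTV 1 or BN HTV 2 (up to 0.145). Slc2a1, the glucose transporter GLUT1, rose in SS lungs by 0.69 (adjusted p = 0.0182), lost without SS control 3, SS HTV 1 or SS HTV 3 (up to 0.0677).

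Of 24 genes of the fasting fuel switch 1 rose and 1 fell in BN lungs, where 5.68% of all genes passed, and 2 rose in SS lungs, where 8.04% did. Lpin1, a phosphatidate phosphatase and coactivator, and the nuclear receptor gene Ppard rose in SS lungs by 0.62 and 0.71, under all alternatives. Lpin1 rose by 0.48 in BN lungs (adjusted p = 0.0448) and lost this call in 13 of 23 alternatives, 10 of which left out an array (SS control 2, or any 1 of the 3 SS HTV, 3 BN control and 3 BN HTV arrays; up to 0.322). Cpt2, of mitochondrial fatty acid import, fell by 0.92 on the log2 scale in BN lungs (adjusted p = 0.0249). This call was lost with no filter and without BN control 1, BN control 2, BN HTV 1 or BN HTV 2 (up to 0.109).

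Upstream of FoxO, 0 of 12 tested genes of insulin and AKT signalling passed in BN lungs in limma, where 5.68% of all genes did. In SS lungs, where 8.04% of all genes passed, Igf1r rose by 0.46 (adjusted p = 0.0415) and Pik3ca fell by 0.47 on the log2 scale (adjusted p = 0.0171). The Igf1r call was lost without any 1 of 8 arrays (SS control 1, 2 or 3, SS HTV 1 or 3, BN control 1 or 3, BN HTV 1). It was also lost with no filter, no trend or only the groups compared (up to 0.166). The Pik3ca call was lost without SS HTV 1 or 3 and with the mean of probe sets (up to 0.065). Of 11 PGC-1 coactivators and partners 0 passed in BN lungs, and the mitochondrial transcription factor gene Tfam fell by 0.53 in SS lungs (adjusted p = 0.0331). The Tfam call was lost without SS control 2 or 3 or SS HTV 2 or 3, and with only the groups compared (up to 0.123).

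**Figure D4:**
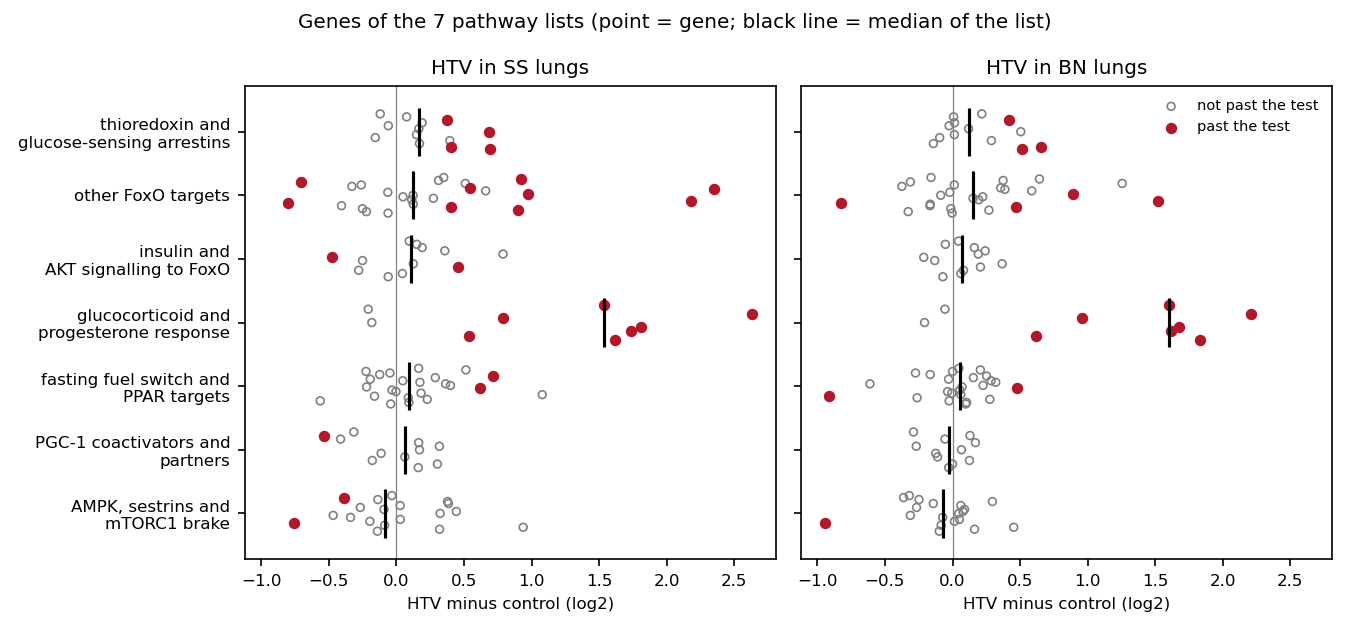
Difference between HTV and control arrays in mean log2(intensity + 16) (horizontal axis, same scale in both panels) for the tested genes of 7 lists, with filled points for genes past an adjusted p of 0.05 and a black line at each list's median. The glucocorticoid and progesterone list is shifted to a median of 1.54 in SS and 1.60 in BN lungs, and the medians of the other 6 lists lie between -0.09 and 0.17.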

How the data were processed

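The authors deposited 1 linear intensity per probe set and array, as MAS5 values per the submitters' processing notes, with version and options not given in the sources used here. On each array the mean between the 2nd and 98th percentile was 149.6 to 150.0, so values were taken as scaled and not normalized again. Per the labels' protocols, biotinylated cRNA was made from 6 µg of RNA. No array pair was identical.

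Of 31099 probe sets 57 controls were left out. The annotation named 1 gene for 20826 of the rest, and a RefSeq table of GRCr8 updated 0 symbols. A probe set was kept if its mean reached the 40th percentile (43.6), leaving 18626 for 10555 genes, each gene represented by its brightest. In limma 3.58.1 (R 4.3.3), 4 group means were fitted to log2(intensity + 16) over 12 arrays (8 residual degrees of freedom, eBayes with a trend), with Benjamini-Hochberg adjustment over all kept probe sets at 0.05. The model was tested on simulated data.

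The members, the 7 pathway lists and the 10 marker lists were chosen with earlier results of these data known. Named were all members, up to 3 genes each way per list and strain with the smallest adjusted p, and the 5 genes most like Depp1. Alternatives were pseudocounts of 1 and 64, no filter, a 60th percentile filter, quantile normalization, median centring, no trend, array weights, only the groups compared, the mean of probe sets, a beta-actin covariate and each array left out, 23 in all.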

Additional observations from a re-analysis of the deposited data

Results flagged for a closer look

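Tfam, which encodes the mitochondrial transcription factor A, lay below the control mean in all 3 SS HTV arrays and above it in all 3 BN HTV arrays. Its mean intensity went from 306 ± 47.3 to 207 ± 29.2 in SS and from 228 ± 32.7 to 250 ± 12.6 in BN lungs (SD, n = 3). The difference between the responses was -0.66 ± 0.20 in log2 and did not pass over all probe sets in limma (adjusted p = 0.53).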

How the results depend on the processing

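No paired analysis was possible because the animal numbers in the labels differ between groups, and replicates 1 to 3 were numbered in sample order within each group. Of 963 single values recomputed under alternatives other than leaving out an array, 926 kept their side of the threshold or moved by less than the spread between arrays, 34 lost a call and 3 gained one, and no called value changed direction. With arrays left out the counts were 951, 116 and 1 of 1068. Many of these leave out an array outside the comparison, which cannot change the difference and can alter only its test. Depp1 in BN lungs and Foxo1 between control lungs passed throughout. Members past the test in BN lungs numbered 2 with array weights or with the beta-actin covariate, and 1 to 2 with an array left out, the second being Irs2. Between control lungs 2 passed with only the arrays compared, the second being Sesn1. Between HTV lungs 0 passed with only the arrays compared or with the beta-actin covariate, and 0 to 1 with an array left out. Pathway genes past the test numbered 9 to 19 in BN and 15 to 27 in SS lungs with an array left out. The median member difference in SS lungs was 0.65 with the 60th percentile filter, which drops Angptl4, and 0.37 to 0.85 with an array left out. The median difference between responses was 0.11 to 0.38 with an array left out. Array weights raised the probe sets past the test in BN lungs from 1091 to 1667, and leaving out an array gave 542 to 1463. No detection call per probe set was used, so how far a dim value stood above background is unknown.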

Other observations

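In control lungs 15 of the 113 pathway genes differed between strains, 4 higher and 11 lower in SS, where 11% of all genes passed. The examples were chosen after their values were seen, so they are given with no p-value. In SS controls both had means below the minimum of 43.6, so brighter groups brought them past the filter. No value without SS control 3 was computed for either. Pik3r1, the regulatory subunit of the kinase upstream of AKT, had 35.3 ± 29.0 in SS and 193 ± 32.4 in BN controls (SD, n = 3). The difference was -2.20 ± 0.35. Its probe set kept the gap under HTV, at 62.3 ± 5.85 and 227 ± 64.7. Fabp3, the heart-type fatty acid binding protein, had 18.3 ± 10.1 in SS and 145 ± 97.9 in BN controls. Cardiac muscle markers were also lower in SS, with sums over 7 markers of 85.2 to 546 in SS and 1270 to 2910 in BN controls. Each of the 7 was below 43.6 in its lowest array, at 0.9 to 23.3, so brighter arrays helped them past the filter too. The part of cardiac muscle in the Fabp3 difference was not tested.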
